A study of Mus musculus with 12 samples.

Results

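The 10 genes described here are those of major histocompatibility complex (MHC) class I molecules of the mouse and their transactivator. They are the classical heavy chains H2-K1 and H2-D1, the nonclassical heavy chains H2-Q4, H2-Q6, H2-Q7, H2-T10, H2-T22 and H2-T23, the shared light chain B2m (beta-2 microglobulin) and Nlrc5. Genes were taken by symbol, and each of the 10 symbols was found once among the 49315 genes counted in every tumor. All 10 passed the filter on low counts in every comparison. A class I molecule is a heavy chain paired with B2m, and the classical ones display peptides from inside the cell to CD8+ T cells on nearly every cell with a nucleus. Nonclassical chains are less variable between strains and have narrower tasks, and both kinds are read by receptors of natural killer (NK) cells. Interferons raise class I transcription, in part through Nlrc5, which assembles with factors bound at short promoter elements, and tumors often carry little class I on their surface.

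RNA was sequenced from 12 subcutaneous tumors of TRAMP-C2, a mouse prostate cancer cell line, grown in the right flank of male C57BL/6J mice aged 6 to 8 weeks. Tumors of about 200 mm3 were injected directly, with 3 tumors per group. The cyto-IL-15 group received 2 doses of 10 µg of cyto-IL-15, a form of interleukin-15 that attaches to cell membranes, on days 0 and 4. The ADU-S100 group received 3 doses of 50 µg of ADU-S100, an agonist of STING, the adaptor that links DNA in the cytosol to interferon, on days 0, 2 and 4. The combination group received both agents on those days. The HBSS group received 3 doses of 50 µl of Hank's balanced salt solution, the vehicle in which ADU-S100 was diluted. Cyto-IL-15 was diluted in PBS, and no group received PBS alone. All tumors were taken on day 6, and tumors are named here as the submitters numbered them (9R, 13 and 20LL for cyto-IL-15, 17LL, 18R and 22LR for ADU-S100, 20L, 22 and 28LL for the combination, 19, 22R and 22LL for HBSS). The 4 groups share 1 transplanted cell line, and the animals' own stroma and leukocytes were part of each tumor.

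Total counts were between 48772204 and 103700199 per tumor, and the lowest count of any of the 10 genes was 114 reads (H2-T10 in tumor 13). Tumor 13 (cyto-IL-15) and tumor 28LL (combination) stood apart from the rest. Over log2 CPM (counts scaled to library size), their Pearson correlation with the other tumors was between 0.79 and 0.92, against 0.94 to 0.99 among the other 10 tumors. Results that rest on either tumor are therefore given with and without it. Of the prostate epithelial markers, Pbsn was at or near 0 (at most 0.016 CPM), Krt18 reached at most 6.09 CPM, and Cdh1 was present in every tumor, so the RNA carried little of a differentiated prostate epithelial program. Fibroblast markers (Col1a1, Col1a2, Pdgfra and Dcn) summed to between 8115 and 24191 CPM. In bulk tumor RNA, fewer cells of a type and less RNA per cell cannot be told apart.

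The promoter sequences are shown because the elements that interferon-driven factors and the Nlrc5 complex are known to use lie close to the start of class I genes. RefSeq (build GRCm38.p6) gave promoters for 8 of the 10 genes, those of H2-T10 and Nlrc5 being named only. Each line below gives 220 bases, of which 210 precede the start site and 10 follow it, read on the strand of the gene. Capitals mark matches that lie wholly in these bases, on either strand, to GGGNNTTCC (NF-kappaB site), to GAAANNGAA or GAANNGAAA (the core of the interferon-stimulated response element, ISRE, in both spellings used here), to TGACG (the X2 box) and to ATTGG (the Y box, which reads CCAAT on the opposite strand).
H2-K1, chr17:34000338-34000557, minus strand: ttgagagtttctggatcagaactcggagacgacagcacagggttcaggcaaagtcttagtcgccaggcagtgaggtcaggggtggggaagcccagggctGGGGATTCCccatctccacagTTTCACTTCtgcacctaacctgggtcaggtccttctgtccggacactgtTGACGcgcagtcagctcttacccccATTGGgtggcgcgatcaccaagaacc
H2-D1, chr17:35262884-35263103, plus strand: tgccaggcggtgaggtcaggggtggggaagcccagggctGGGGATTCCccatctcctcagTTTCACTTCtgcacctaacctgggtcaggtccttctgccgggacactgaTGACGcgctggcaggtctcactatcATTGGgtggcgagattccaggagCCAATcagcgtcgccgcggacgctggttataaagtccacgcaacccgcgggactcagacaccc
H2-Q4, chr17:35379407-35379626, plus strand: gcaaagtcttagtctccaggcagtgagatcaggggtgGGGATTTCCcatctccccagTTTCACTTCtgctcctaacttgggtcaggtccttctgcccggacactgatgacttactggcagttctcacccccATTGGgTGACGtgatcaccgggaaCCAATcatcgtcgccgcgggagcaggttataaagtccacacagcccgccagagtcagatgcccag
H2-Q6, chr17:35424640-35424859, plus strand: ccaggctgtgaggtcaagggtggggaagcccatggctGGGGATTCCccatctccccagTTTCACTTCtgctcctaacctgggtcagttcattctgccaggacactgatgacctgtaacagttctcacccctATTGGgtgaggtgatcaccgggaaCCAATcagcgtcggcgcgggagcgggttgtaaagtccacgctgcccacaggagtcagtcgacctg
H2-Q7, chr17:35438945-35439164, plus strand: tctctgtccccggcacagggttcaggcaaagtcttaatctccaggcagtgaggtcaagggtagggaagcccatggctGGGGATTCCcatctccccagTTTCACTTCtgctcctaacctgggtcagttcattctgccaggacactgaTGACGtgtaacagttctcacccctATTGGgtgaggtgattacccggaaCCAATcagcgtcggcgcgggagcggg
H2-T22, chr17:36042733-36042952, minus strand: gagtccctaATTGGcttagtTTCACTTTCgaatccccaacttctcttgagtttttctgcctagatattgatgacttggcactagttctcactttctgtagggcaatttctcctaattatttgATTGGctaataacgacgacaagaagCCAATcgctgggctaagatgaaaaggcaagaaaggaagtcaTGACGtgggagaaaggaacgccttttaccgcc
H2-T23, chr17:36032692-36032911, minus strand: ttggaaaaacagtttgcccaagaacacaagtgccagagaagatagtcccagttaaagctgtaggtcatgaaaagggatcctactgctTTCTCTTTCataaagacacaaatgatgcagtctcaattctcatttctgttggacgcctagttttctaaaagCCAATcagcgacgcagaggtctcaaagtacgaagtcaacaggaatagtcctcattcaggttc
B2m, chr2:122147477-122147696, plus strand: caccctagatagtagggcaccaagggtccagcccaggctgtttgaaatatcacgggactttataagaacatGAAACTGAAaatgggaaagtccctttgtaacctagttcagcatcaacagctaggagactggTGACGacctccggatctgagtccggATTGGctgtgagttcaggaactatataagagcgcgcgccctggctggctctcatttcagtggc

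The classical genes and the Q genes shared 3 elements in 1 order, while the X2 box varied among them. H2-K1, H2-D1, H2-Q4, H2-Q6 and H2-Q7 each had an NF-kappaB match, then an ISRE core of the GAANNGAAA spelling on the opposite strand, then a Y box, within the 250 bases before to 50 bases after the start. GGGNNTTCC was found in 5 of the 8 promoters and in 5.72% of all 27025 promoters of that length. GAANNGAAA, a spelling added after these promoters had been read, was found in the same 5 genes and in 7.56% of all promoters. B2m, H2-T22 and H2-T23 instead held the GAAANNGAA spelling, which 8.57% of all promoters hold, and none of the 3 held GGGNNTTCC. No promoter of the 8 held the STAT letters TTCNNNGAA, found in 8.47% of all. All 8 held ATTGG (37.92% of all promoters) and 6 held TGACG (21.02%). An X2 box followed by a Y box on the same strand, 5 to 40 bases on, was found in H2-K1, H2-D1 and B2m with 20 bases between them and in H2-Q7 with 19, and in 1.13% of all promoters. In H2-Q4 the letters TGACG lay just after the Y box instead of before it, and H2-Q6 had the Y box but not TGACG. A match of letters is a description and was not tested as a binding site.

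**Figure D1:**
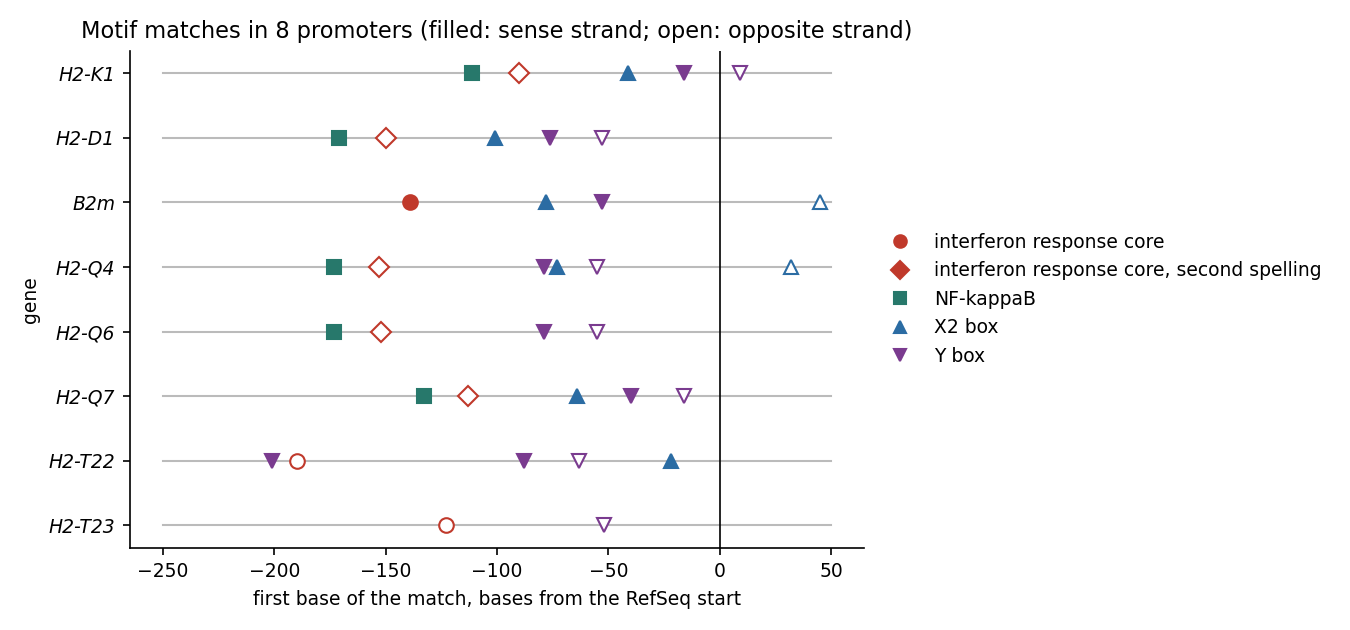
Position of each motif match in the 8 promoters, in bases from the RefSeq start (x axis), one line per gene, with filled symbols for the strand of the gene and open symbols for the opposite strand. NF-kappaB squares and second-spelling diamonds appear in the 2 classical and 3 Q genes, and the circles of the first spelling in B2m, H2-T22 and H2-T23.

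In the deposited coordinates (GRCm38), the 8 heavy-chain genes lie on chromosome 17, at positions from 33996017, where H2-K1 (ENSMUSG00000061232) starts, to 36121465, where H2-T10 (ENSMUSG00000079491) ends. B2m (ENSMUSG00000060802) lies on chromosome 2 from 122147686 to 122153083 and Nlrc5 (ENSMUSG00000074151) on chromosome 8 from 94434356 to 94527272. GENCODE M21 lists H2-T10 as a polymorphic pseudogene and the other 9 as protein coding. Near-identical relatives can trade reads. Among 100-base stretches of each gene's transcripts, the share also found in another gene was 31.46% for H2-T22, 28.14% for H2-T10, 14.07% for H2-Q4, 13.04% for H2-Q6 and 11.98% for H2-Q7. It was under 4% for H2-K1, H2-D1 and H2-T23 (0.96%, 3.59% and 3.15%), and no stretch of B2m or Nlrc5 was shared. H2-T22, H2-T10 and H2-Q4 also overlap genes on the opposite strand by 1003, 925 and 496 exonic bases, and since the strand setting of the counting is not given in the sources used here, reads of the partners cannot be told apart from theirs. The values of these nonclassical genes are uncertain to that extent.

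Per kilobase of exon, the order of the 10 genes by mean level was the same in all 4 groups. B2m was highest, at 1367 ± 724 CPM per kb in cyto-IL-15 tumors, 2610 ± 39.7 in ADU-S100 tumors, 2566 ± 600 in combination tumors and 1148 ± 102 in HBSS tumors (SD, n = 3 each). H2-D1 and H2-K1 came next and did not differ beyond their spread in any group, with 1314 ± 204 and 1262 ± 310 CPM per kb in ADU-S100 tumors and 511 ± 83.4 and 481 ± 96.6 in HBSS tumors. The nonclassical chains stood well below the classical ones. H2-Q4 led them with 253 ± 31.7 CPM per kb in ADU-S100 tumors and 89.1 ± 13.6 in HBSS tumors. H2-Q6, H2-T23 and H2-T22 followed with 161 ± 38.4, 96.8 ± 19.3 and 93.1 ± 9.22 CPM per kb in ADU-S100 tumors. In HBSS tumors H2-Q6 had 35.3 ± 9.17, H2-T22 had 31.9 ± 1.87 and H2-T23 had 24.9 to 45.0 CPM per kb, so that these 3 did not differ beyond their spread. H2-Q7, Nlrc5 and H2-T10 were the lowest, at 59.5 ± 13.6, 10.3 ± 0.879 and 9.44 ± 0.978 CPM per kb in ADU-S100 tumors and 16.6 ± 4.78, 6.76 ± 0.821 and 3.02 ± 0.242 in HBSS tumors.

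ADU-S100 treatment went with higher class I RNA throughout: of the 10 genes, 9 were called higher than in HBSS tumors, by 1.19 to 2.19 on the log2 scale, and Nlrc5 had a difference under the fold threshold. A gene was called when the Benjamini-Hochberg adjusted p of edgeR's quasi-likelihood test over all 18911 genes tested was under 0.05 and its log2 fold change was above 1 in either direction, and 2.75% of all tested genes were called higher. The median log2 fold change was 1.49 over the 10 genes and 0.029 over all genes tested. All levels, above and below, are CPM after TMM scaling, and from here they are not divided by exon length unless given per kb. Every ADU-S100 tumor lay above every HBSS tumor for all 10 genes, which held for 16.4% of all genes.

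H2-K1, which encodes the heavy chain of the K molecule, had 2520, 4131 and 3226 CPM in ADU-S100 tumors 17LL, 18R and 22LR, against 1522, 1021 and 1221 CPM in HBSS tumors 19, 22R and 22LL. H2-D1, the D heavy chain, had 2956, 3973 and 3234 CPM in those ADU-S100 tumors, against 1533, 1103 and 1319 CPM in the HBSS tumors. For both genes the lowest treated tumor was 17LL and the highest 18R, and the groups were well apart. Their log2 fold changes were 1.39 (standard error 0.21, adjusted p = 0.00888 from edgeR) for H2-K1 and 1.36 (0.165, adjusted p = 0.00366) for H2-D1.

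B2m, without which most heavy chains do not reach the cell surface, had 2277, 2249 and 2209 CPM in ADU-S100 tumors, against 1048, 887 and 1028 CPM in HBSS tumors. The 3 treated tumors were almost equal, with the highest only 1.03 times the lowest. The difference was 1.19 on the log2 scale (standard error 0.12, edgeR adjusted p = 0.00151). Nlrc5 had 80.0, 94.9 and 87.8 CPM in ADU-S100 tumors, against 62.1, 49.4 and 60.6 CPM in HBSS tumors. The groups did not overlap, and the log2 fold change of 0.61 (standard error 0.12, adjusted p = 0.0265 from edgeR) was the smallest of the 10.

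Among the nonclassical chains, H2-Q6 and H2-Q7, which encode Qa-2 molecules, had the widest differences. H2-Q6 had 256, 416 and 333 CPM in ADU-S100 tumors, against 93.6, 55.5 and 71.9 CPM in HBSS tumors, a log2 fold change of 2.19 (standard error 0.23, adjusted p = 0.00308 from edgeR). H2-Q7 had 206, 318 and 237 CPM in ADU-S100 tumors, against 89.5, 49.1 and 73.9 CPM in HBSS tumors, a log2 fold change of 1.84 (0.24, adjusted p = 0.00800). Both genes were highest in tumor 18R and lowest in tumor 22R, as the classical genes were. H2-Q4 had 599, 752 and 623 CPM in ADU-S100 tumors, against 270, 202 and 222 CPM in HBSS tumors, and its log2 fold change was 1.51 (0.15, adjusted p = 0.00146).

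H2-T23, which encodes Qa-1, the ligand that presents signal peptides of other class I chains to the NK receptor pair of Klrd1 and Klrc1, had 217, 296 and 325 CPM in ADU-S100 tumors, against 130, 71.8 and 102 CPM in HBSS tumors. The difference was 1.47 on the log2 scale (standard error 0.23, edgeR adjusted p = 0.0141), and without HBSS tumor 22LL its adjusted p was 0.0562, the only call lost when single tumors were left out. H2-T22 encodes a peptide-free molecule that some gamma delta T cells recognize, and its relative H2-T10 is the polymorphic pseudogene named above. H2-T22 had 289, 313 and 352 CPM in ADU-S100 tumors, against 116, 104 and 107 CPM in HBSS tumors, with a log2 fold change of 1.55 (0.115, adjusted p = 0.000695), the smallest adjusted p of the 10. H2-T10 had 28.6, 33.2 and 35.1 CPM in ADU-S100 tumors, against 11.1, 9.46 and 10.4 CPM in HBSS tumors, with a log2 fold change of 1.65 (0.13, adjusted p = 0.000823). For the T genes tumor 22LR, not 18R, was the highest treated tumor. In a single fit of all 12 tumors, which takes in the spread of tumors 13 and 28LL, none of the 10 was called (adjusted p between 0.289 and 0.755) and neither was any other gene.

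**Figure D2:**
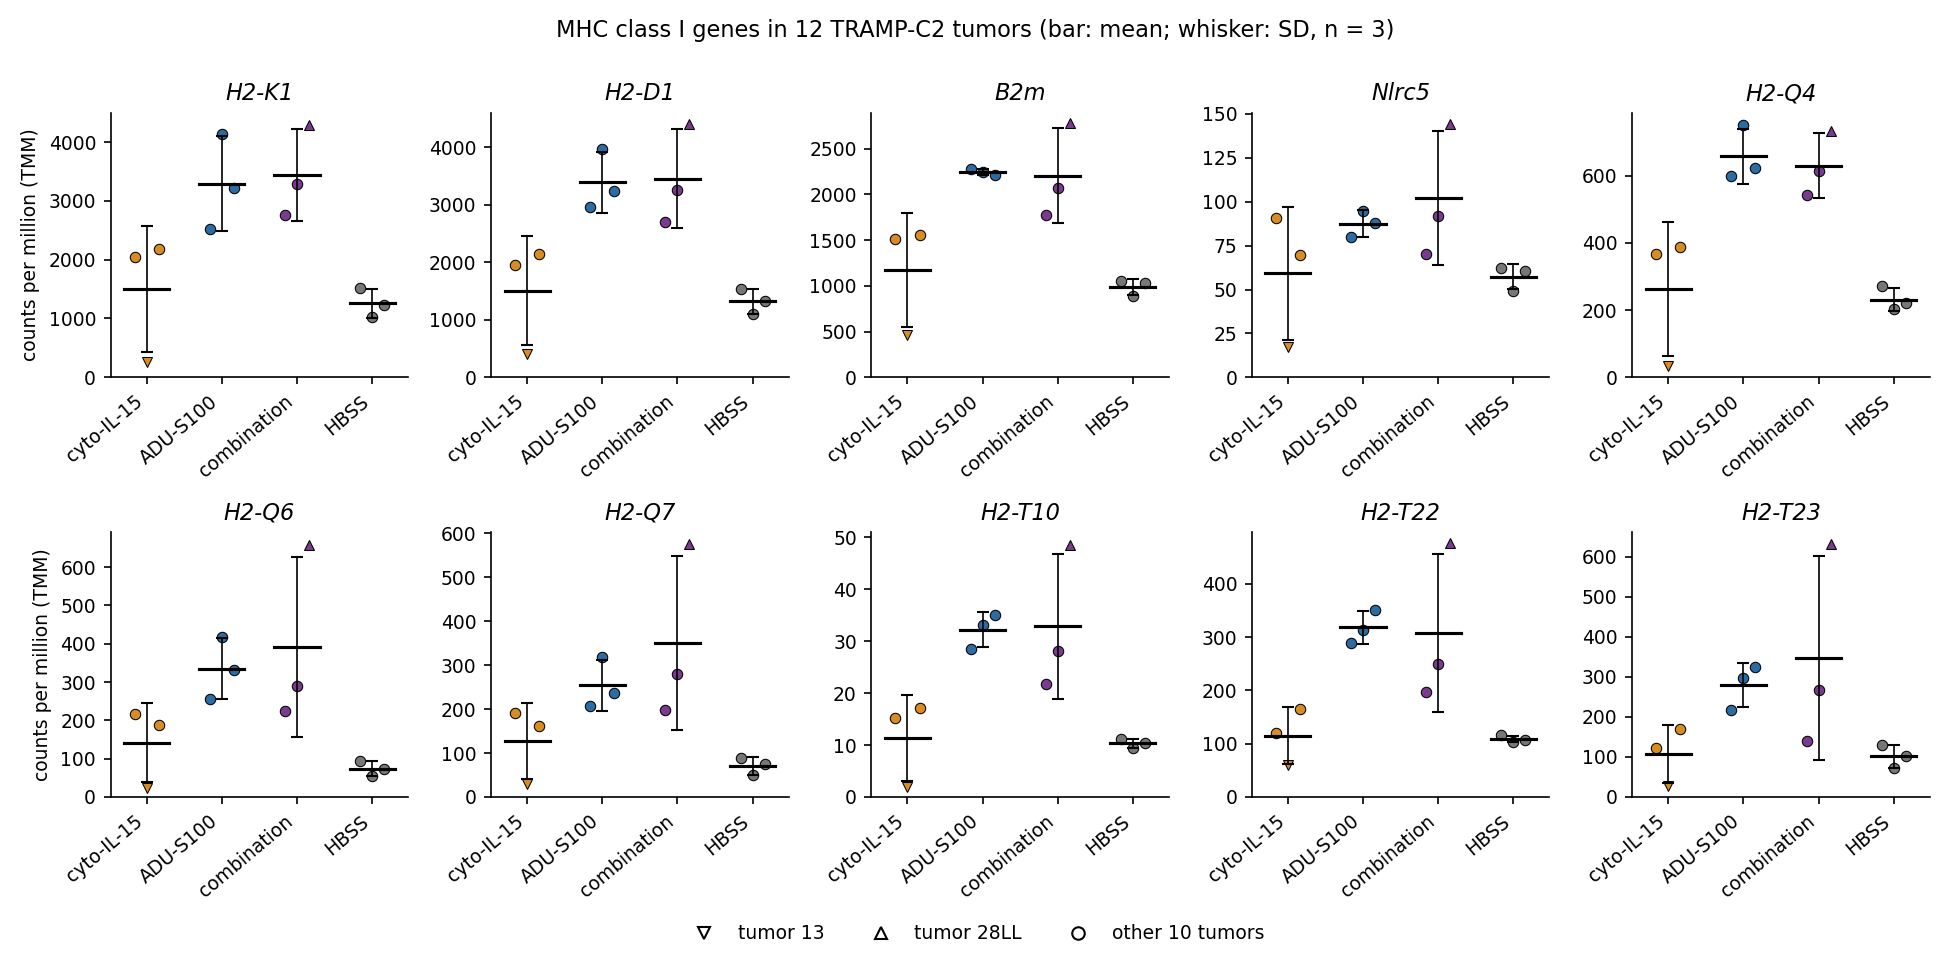
TMM-scaled CPM (y axis, from 0) of each of the 10 genes in every tumor by group (x axis), with the mean as a bar and the SD as whiskers (n = 3). ADU-S100 tumors lie above HBSS tumors in all 10 panels, and tumors 13 and 28LL, drawn as triangles, are the lowest and mostly the highest of the 12.

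In combination tumors the means of the 10 genes were above those of HBSS tumors by 0.85 to 2.42 on the log2 scale, with a larger SD than in ADU-S100 tumors for all but H2-K1, and no gene of 18565 was called against HBSS by edgeR (smallest adjusted p = 0.185). At an unadjusted p under 0.05, all 10 were higher, as were 11.0% of all genes tested. For all 10 genes the lowest combination tumor exceeded the highest HBSS tumor, against 15.0% of all genes. H2-K1 had 2760, 3283 and 4297 CPM in combination tumors 20L, 22 and 28LL, against the HBSS values above, a log2 fold change of 1.47 (standard error 0.24, adjusted p = 0.185). H2-D1 had 2704, 3259 and 4400 CPM and B2m 1773, 2069 and 2777 CPM in the combination tumors. In each of the 3 genes tumor 28LL was the highest and tumor 20L the lowest.

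Tumor 28LL set the spread of several nonclassical genes. H2-T23 had 140, 268 and 631 CPM in combination tumors 20L, 22 and 28LL, against 130, 71.8 and 102 CPM in HBSS tumors, so that tumor 20L lay just above the highest HBSS tumor. H2-Q6 had 224, 289 and 659 CPM and H2-Q7 had 197, 280 and 575 CPM in the combination tumors, with log2 fold changes of 2.42 (standard error 0.46, adjusted p = 0.185 from edgeR) and 2.32 (0.46, adjusted p = 0.185). H2-Q4 was the least spread of the nonclassical genes, with 542, 614 and 734 CPM in the combination tumors. H2-T22 had 196, 249 and 475 CPM and H2-T10 had 21.8, 28.2 and 48.6 CPM there. Nlrc5 had 70.4, 91.9 and 144 CPM in combination tumors, against 62.1, 49.4 and 60.6 CPM in HBSS tumors, with a log2 fold change of 0.85 (0.28, adjusted p = 0.224).

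The call for the combination turned on the tool and on 1 tumor. DESeq2's Wald test on the same 6 tumors called 9 of the 10 higher, all but Nlrc5, and 2.44% of all genes higher. Without tumor 28LL, edgeR called 7 of the 10 higher (H2-K1, H2-D1, H2-Q4, H2-Q6, H2-Q7, H2-T10 and H2-T22, with log2 fold changes between 1.04 and 1.80) and 0.968% of all genes higher. B2m then had a log2 fold change of 0.96 with an adjusted p of 0.0226, under the fold threshold, and H2-T23 had 1.01 with an adjusted p of 0.195.

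**Figure D3:**
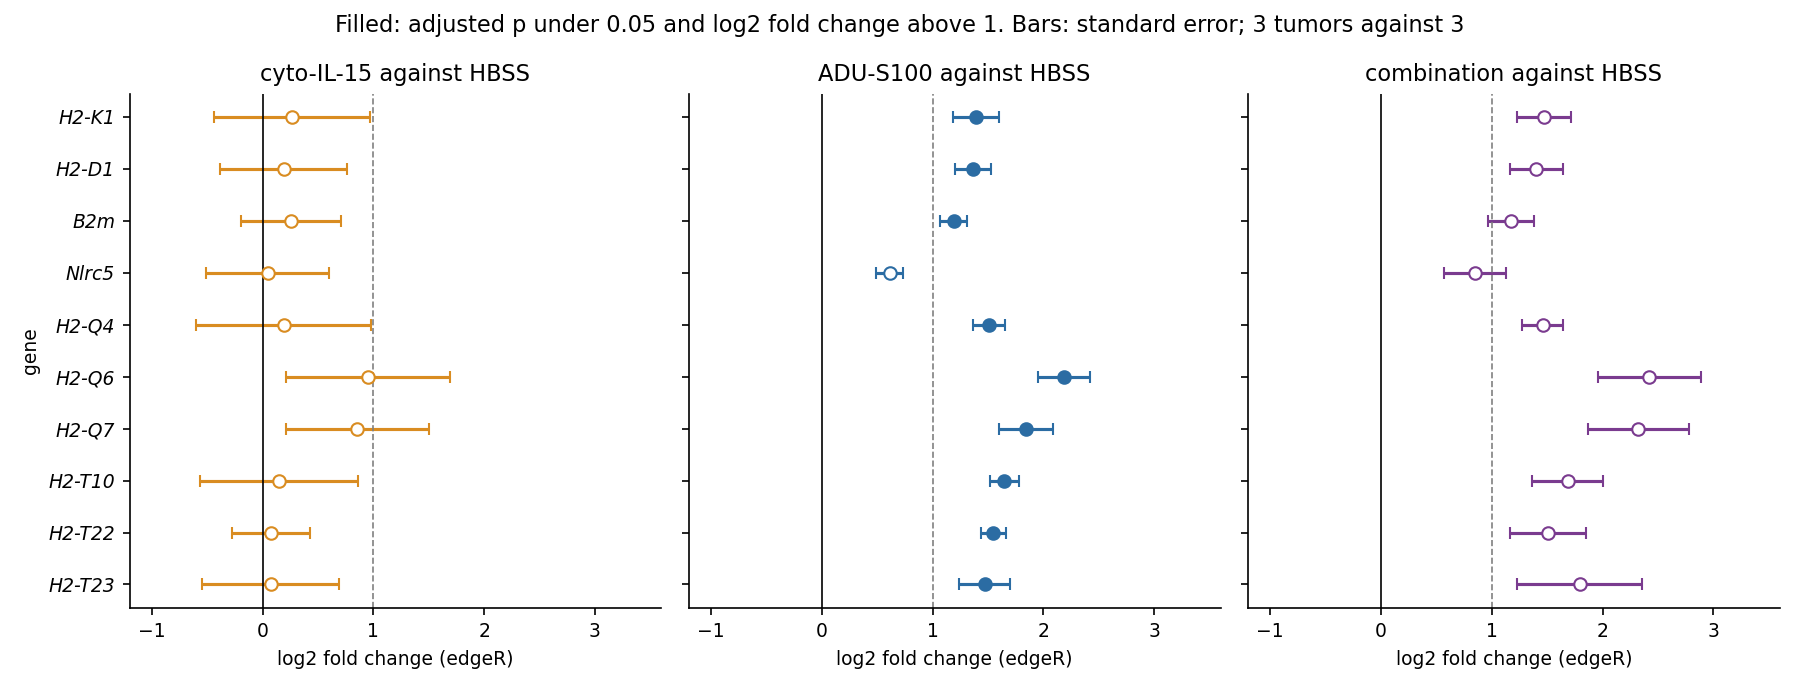
Log2 fold change against HBSS (x axis) with its standard error (bars) for the 10 genes (y axis), with 1 panel for each treatment and 3 tumors against 3. Filled points pass both thresholds, and 9 are filled for ADU-S100 and none for the other groups, whose bars are wider.

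With cyto-IL-15 alone, 2 tumors had more of most class I RNAs than HBSS tumors and 1 had far less, and no gene of 18594 was called (edgeR). No gene of the 10 had an unadjusted p under 0.05, against 2.13% of all genes that were higher at that level, and DESeq2 called none of the 10. H2-K1 had 2052, 265 and 2188 CPM in cyto-IL-15 tumors 9R, 13 and 20LL, against 1522, 1021 and 1221 CPM in HBSS tumors 19, 22R and 22LL. H2-Q4 had 367, 32.8 and 389 CPM in cyto-IL-15 tumors, against 270, 202 and 222 CPM in HBSS tumors. B2m had 1514, 457 and 1556 CPM in cyto-IL-15 tumors, against 1048, 887 and 1028 CPM in HBSS tumors. Tumor 13 was the lowest of the 12 for all 10 genes. For none of the 10 did every cyto-IL-15 tumor lie above every HBSS tumor, which held for 4.88% of all genes, and the log2 fold changes were between 0.05 and 0.95 with a median of 0.19. These comparisons with HBSS share the same 3 HBSS tumors.

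Without tumor 13, the remaining pair of cyto-IL-15 tumors had higher values for all 10 genes, with log2 fold changes between 0.39 and 1.46. Of the 10, 9 then had an unadjusted p under 0.05 and were higher, against 5.99% of all genes, and H2-Q6 alone was called higher (log2 fold change 1.46, standard error 0.21, adjusted p = 0.0300 from edgeR), against 0.907% of all genes. H2-Q7 followed it (1.33, adjusted p = 0.0801), while H2-K1 had a log2 fold change of 0.76 (adjusted p = 0.162) and H2-T23 one of 0.53 (adjusted p = 0.558). The low level of tumor 13 was not even across the family. H2-Q4 in tumor 13 was 11.8 times below the highest cyto-IL-15 tumor, H2-Q6 9.46 times and H2-K1 8.26 times, but H2-D1 5.18 times, B2m 3.40 times and H2-T22 2.78 times.

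Set against cyto-IL-15, ADU-S100 tumors were higher in 9 of the 10 genes in every tumor, the exception being Nlrc5, whose 80.0 to 94.9 CPM overlapped the cyto-IL-15 tumors, and 9.38% of all genes were separated in this way. None of the 10 was called higher by edgeR, with log2 fold changes between 0.54 and 1.48, and 0.0855% of all genes were. H2-T22, with 289 to 352 CPM in ADU-S100 tumors and 59.4 to 165 CPM in cyto-IL-15 tumors, had the smallest p of the 10 (log2 fold change 1.45, standard error 0.36, adjusted p = 0.447 from edgeR) and was the 1 gene of the 10 that DESeq2 called (adjusted p = 0.0326). Without tumor 13, edgeR called H2-T22 (1.16, adjusted p = 0.0300) and H2-T10 (1.00, adjusted p = 0.0312) higher in ADU-S100 tumors, against 0.727% of all genes, whereas H2-K1 and H2-Q7 had 0.64 and 0.53 with adjusted p-values of 0.281 and 0.330.

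Combination tumors lay above every cyto-IL-15 tumor in 8 of the 10 genes, all but Nlrc5 and H2-T23, against 6.14% of all genes. No gene was called by edgeR or, of the 10, by DESeq2, and the log2 fold changes were between 0.80 and 1.72 with a median of 1.35. The median was 0.849 without tumor 13 and 0.945 without tumor 28LL, and without both the log2 fold changes were between 0.01 and 0.64 with a median of 0.489 and none of the 10 called. With all tumors, H2-T22 alone of the 10 was higher at an unadjusted p under 0.05 (edgeR adjusted p = 0.785), as were 3.13% of all genes. Between the combination and ADU-S100 alone, no gene of the 10 was separated (4.68% of all genes were higher in every combination tumor) and the log2 fold changes were between -0.05 and 0.48, with 7 above 0. Without tumor 28LL all 10 were below 0, between -0.51 and -0.09, and none was called.

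Read over the 2 by 2 layout, in which 6 tumors received ADU-S100 and 6 did not, the term for ADU-S100 was between 0.70 and 1.82 on the log2 scale for the 10 genes in an additive edgeR fit of all 12 tumors. All 10 were higher at an unadjusted p under 0.05, as were 11.3% of 20132 genes tested. Of the 10, H2-T22 alone was called (1.48, standard error 0.25, adjusted p = 0.0174), against 0.993% of all genes called higher. B2m (1.05, adjusted p = 0.0588) and H2-Q7 (1.65, adjusted p = 0.0599) came next. With the number in the tumor name as a block, which rests on the 6 tumors numbered 20 or 22, none was called (H2-T22 1.13, adjusted p = 0.503 from edgeR). Without tumors 13 and 28LL, 6 of the 10 were called higher (H2-K1, H2-D1, H2-Q4, H2-Q7, H2-T10 and H2-T22), against 1.61% of all genes. For 8 of the 10, all but Nlrc5 and H2-T23, each tumor given ADU-S100 was above each tumor not given it, which held for 1.90% of all genes. The cyto-IL-15 term was between 0.01 and 0.66 and the interaction between -0.73 and 0.23, and edgeR called neither for any gene of the 10. For neither did any gene of the 10 have an unadjusted p under 0.05 (1544 and 461 of all genes did), and DESeq2 called 0 of the 10 in both. Without tumors 13 and 28LL the interaction was below 0 for all 10, between -1.84 and -0.59. None was called (smallest edgeR adjusted p among the 10 = 0.377 for H2-Q6). In that fit, chosen after seeing the data, 9 of the 10 had an unadjusted p under 0.05 from edgeR. So did 1706 of 20675 genes tested, in either direction, of which 712 were above 0.

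The classical share of heavy-chain RNA, H2-K1 and H2-D1 together as a percentage of the CPM per kb of all 8 heavy chains, was close to constant in HBSS tumors and lower in ADU-S100 tumors. It was 78.7%, 80.3% and 78.5% in ADU-S100 tumors 17LL, 18R and 22LR, against 82.4%, 82.5% and 82.6% in HBSS tumors 19, 22R and 22LL, and the groups did not overlap. It was 80.6%, 81.9% and 81.1% in cyto-IL-15 tumors 9R, 13 and 20LL. It was 81.6%, 80.4% and 75.2% in combination tumors 20L, 22 and 28LL, so that tumor 28LL had the largest nonclassical share of the 12. All 9 treated tumors lay below the 3 HBSS tumors in this share. The classical log2 fold changes for ADU-S100 were 1.36 and 1.39 and the nonclassical ones 1.47 to 2.19 with a median of 1.60. For the combination they were 1.40 and 1.47 against 1.46 to 2.42 with a median of 1.74. The difference between classical and nonclassical genes was not tested, and shared stretches limit the nonclassical counts.

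The ratio of all 8 heavy chains to B2m, per kb, was 1.01 to 1.49 in ADU-S100 tumors, 1.25 to 1.38 in combination tumors and 0.96 to 1.17 in HBSS tumors, and was 1.09, 0.60 and 1.14 in cyto-IL-15 tumors 9R, 13 and 20LL. Tumor 13 thus had the least heavy-chain RNA per unit of light-chain RNA. H2-K1 over H2-D1, per kb, was 0.63 in tumor 13 and between 0.84 and 1.04 in the other 11 tumors.

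**Figure D4:**
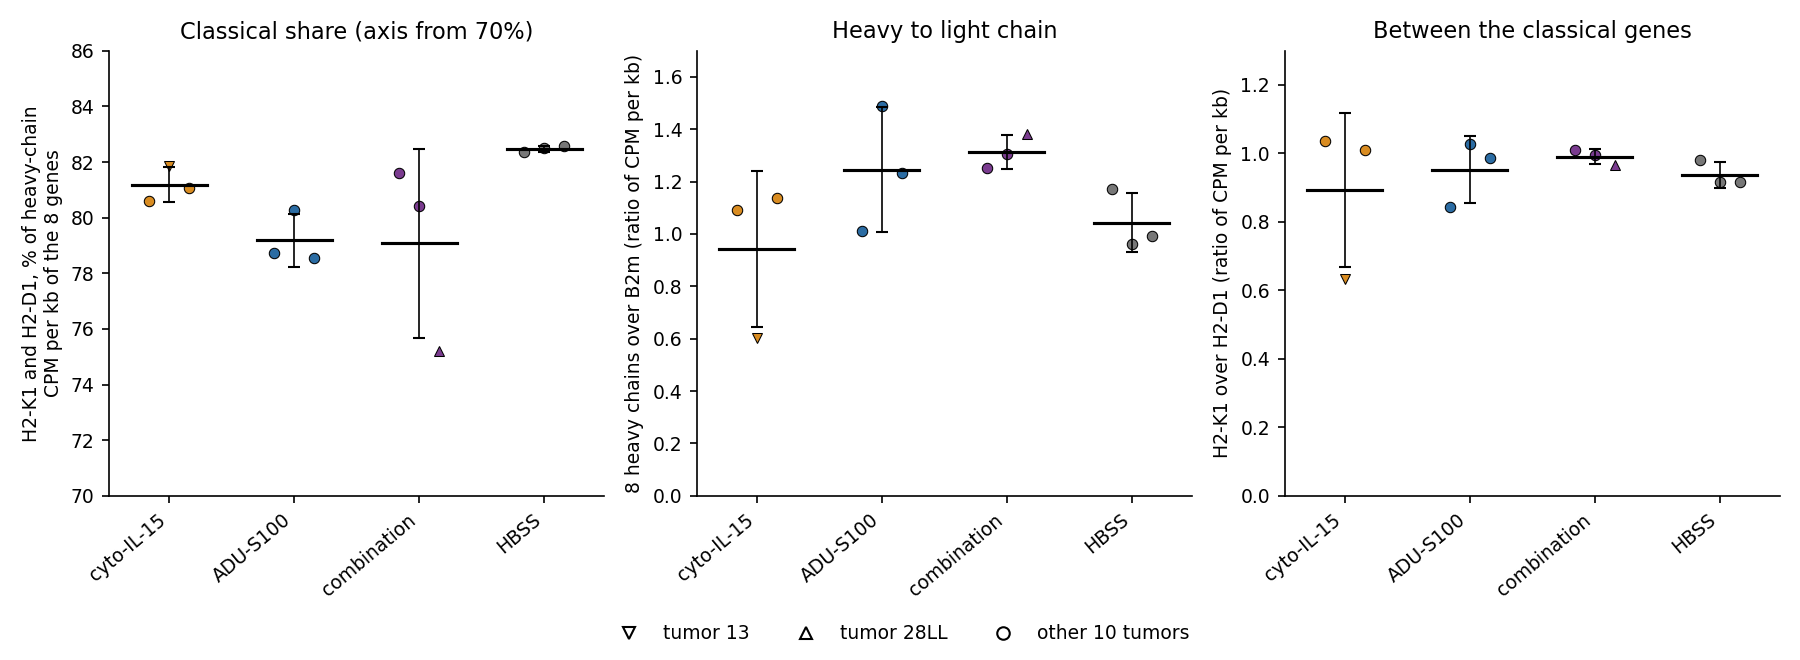
Classical share of heavy-chain CPM per kb in percent (left, axis from 70%), heavy chains over B2m (middle) and H2-K1 over H2-D1 (right) for each tumor by group, with mean and SD (n = 3). HBSS tumors lie at 82.4 to 82.6% and ADU-S100 tumors at 78.5 to 80.3%, and tumor 13 is lowest in both ratios.

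The 10 genes followed each other closely across the 12 tumors. Pearson's r of log2(CPM + 0.5) between members was between 0.84 (Nlrc5 and H2-T22) and 0.99 (H2-K1 and H2-D1), as a description over 12 tumors that share treatments and a low and a high outlying tumor. Outside the 10, and among the 10189 genes that averaged 10 CPM or more, the genes most like the mean standardized level of the 10 were Ifi47 (r = 0.99), H2-Q5 (0.99), Psmb9 (0.99), Nmi (0.99), Psmb8 (0.98) and Tap1 (0.98). Ifi47 is an interferon-induced GTPase, H2-Q5 a further heavy-chain gene, Psmb8 and Psmb9 subunits of the immunoproteasome, and Tap1 a subunit of the peptide transporter. Ifi47 averaged 108 ± 6.52 CPM in ADU-S100 tumors and 48.9 ± 7.19 CPM in HBSS tumors (SD, n = 3 each). Psmb9 averaged 111 ± 14.3 CPM in ADU-S100 tumors and 47.4 ± 9.48 CPM in HBSS tumors.

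The machinery that supplies peptides to class I rose in part with ADU-S100. Of 13 genes of class I assembly and peptide supply, 3 were called higher than in HBSS tumors and none lower, with a median log2 fold change of 0.57. These were Psmb8 (1.04, adjusted p = 0.00311 from edgeR), Psmb9 (1.23, adjusted p = 0.00475) and Tap1 (1.31, adjusted p = 0.0186), while Tap2, the other subunit of the transporter, had 0.69 (adjusted p = 0.0201), under the fold threshold. The summed level of the 13 genes was 4678 to 4992 CPM in ADU-S100 tumors, 4332 to 5540 CPM in combination tumors, 2844 to 4032 CPM in cyto-IL-15 tumors and 3611 to 4050 CPM in HBSS tumors. In the other comparisons with HBSS edgeR called no gene at all, so the lack of calls there says nothing particular about the 13. Their median log2 fold change against HBSS was 0.68 for the combination and -0.06 for cyto-IL-15.

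Of 15 transcription factors that act on class I promoters, 3 were called higher in ADU-S100 than in HBSS tumors and none lower, with a median log2 fold change of 0.08. Among them were Stat2 (1.55, adjusted p = 0.00116 from edgeR) and Irf9 (1.32, adjusted p = 0.00116), which act downstream of the type I interferon receptor. Creb1, a factor of the X2 box, had -0.50 (adjusted p = 0.0280). The genes for the subunits of RFX and NF-Y, which bind the X and Y boxes with Nlrc5, had log2 fold changes between -0.27 and 0.15, and none was called. Of 5 interferon and interferon receptor genes tested, Ifng, the interferon of T and NK cells, was called higher (2.34, standard error 0.30, adjusted p = 0.00414 from edgeR). Ifng was low, at 2.05 ± 0.121 CPM in ADU-S100 tumors and 0.404 ± 0.107 CPM in HBSS tumors (SD, n = 3 each). Ifnb1 did not pass the filter on low counts.

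Of 14 further class I and class I-like genes tested (of 19 listed), 3 were called higher with ADU-S100 and none lower. They were H2-Q10 (2.83, adjusted p = 0.00595 from edgeR), H2-Q5 (1.52, adjusted p = 0.00236) and the pseudogene H2-T-ps (1.60, adjusted p = 0.0212). H2-Q10 shares stretches with H2-K1 and H2-Q7. Its level was near the floor, at 1.48 ± 0.504 CPM in ADU-S100 tumors and 0.21 ± 0.062 CPM in HBSS tumors (SD, n = 3 each). Fcgrt, a class I-like receptor that carries immunoglobulin G, had -0.43 (adjusted p = 0.0483). Of 10 receptors for class I tested, 7 were called higher, with a median log2 fold change of 1.99. Klra7 (2.58, adjusted p = 0.00138) and Klra9 (2.14, adjusted p = 0.00612) encode Ly49 receptors that bind classical molecules, and Klrd1 (2.19, adjusted p = 0.00236) and Klrc1 (1.99, adjusted p = 0.00350) encode the pair that binds Qa-1. Klra genes are near-identical to each other, and their single values are uncertain.

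Other cell types differed between the same tumors. Of 12 leukocyte markers, Klrb1c (2.02, adjusted p = 0.00139 from edgeR), Ncr1 (1.90, adjusted p = 0.00263) and S100a8 (4.52, adjusted p = 0.00475) were called higher with ADU-S100 and Flt3 (-1.49, adjusted p = 0.0413) lower. S100a8 was low, at 4.78 ± 3.41 CPM in ADU-S100 tumors and 0.207 ± 0.038 CPM in HBSS tumors (SD, n = 3 each). The summed level of the 12 markers was 390, 609 and 547 CPM in ADU-S100 tumors and 498, 415 and 510 CPM in HBSS tumors, which overlapped. It was 494, 819 and 1540 CPM in combination tumors 20L, 22 and 28LL and 671, 242 and 831 CPM in cyto-IL-15 tumors 9R, 13 and 20LL, so that tumor 13 had the lowest sum of the 12 tumors and tumor 28LL the highest, as for the class I genes. Of the epithelial, fibroblast and endothelial markers, none was called in this comparison. Of 6 skeletal muscle fiber markers, 4 were called higher with ADU-S100, and their sum was 137 to 1470 CPM in ADU-S100 tumors, 39.5 to 3869 CPM in combination tumors and 3.27 to 4.13 CPM in HBSS tumors. It was 654, 3.82 and 227 CPM in cyto-IL-15 tumors 9R, 13 and 20LL. The part of leukocytes and of muscle in the class I values was not tested.

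**Figure D5:**
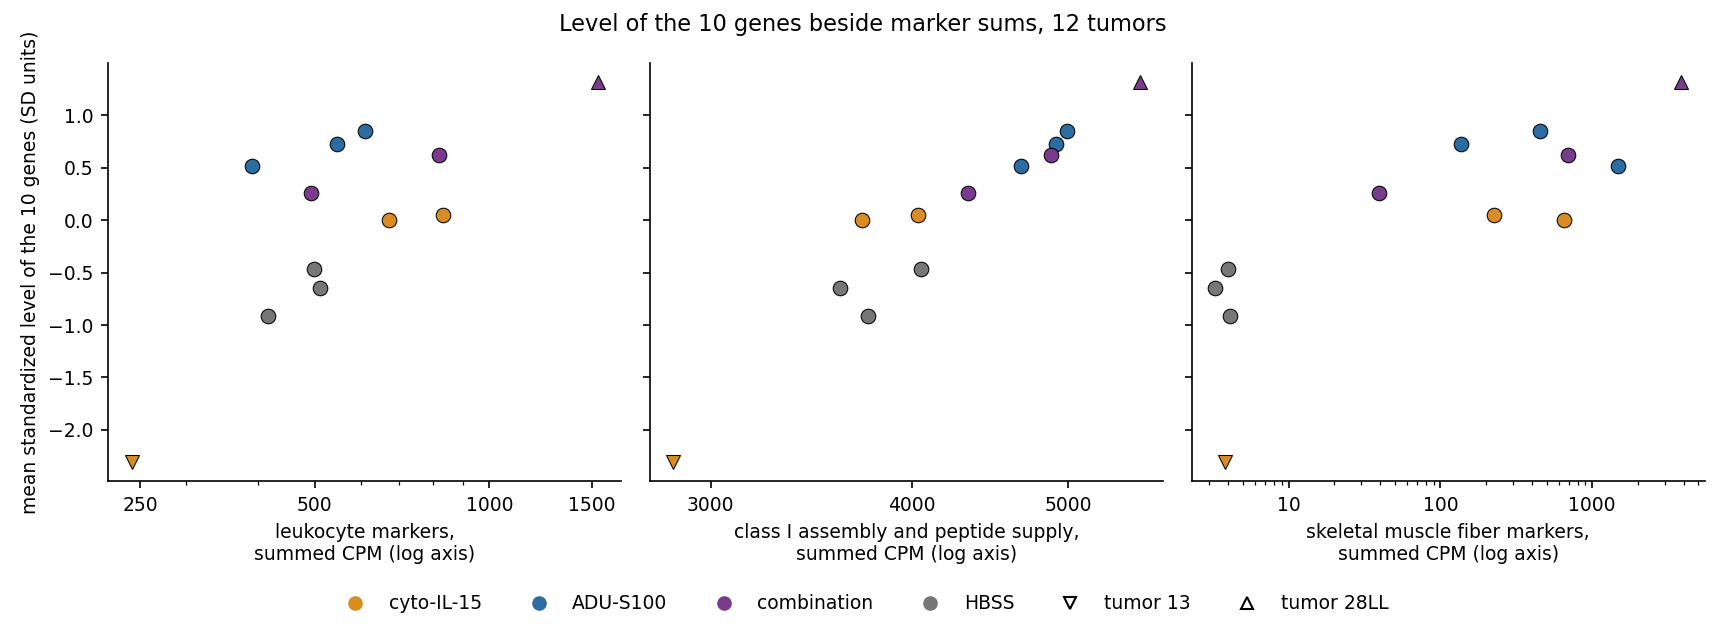
Mean standardized level of the 10 genes in each of 12 tumors (y axis, SD units) against the summed CPM (log axes) of leukocyte markers (left), genes of class I assembly and peptide supply (middle) and skeletal muscle fiber markers (right), colored by group. Tumor 13 is lowest and tumor 28LL highest on both axes of the left and middle panels, and muscle markers lie between 3.27 and 4.13 CPM in HBSS tumors and between 137 and 1470 CPM in ADU-S100 tumors.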

How the data were processed

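RNA was measured by sequencing in 12 tumors, 3 per group. The deposited files hold raw counts of reads per Ensembl gene. Per the labels, the authors aligned with STAR 2.5.2b after trimming by Trimmomatic 0.36, counted with Subread's featureCounts (version 1.5.2) and tested with DESeq2, naming builds GRCm38 and mm10. The strand setting, the handling of reads with several positions and the annotation release are not given in the sources used here, which affects paralogs and overlapping genes.

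Using edgeR 4.0.16 under R 4.3.3, each pair of groups was fitted on its 6 tumors (robust quasi-likelihood F test after filterByExpr and TMM), with Benjamini-Hochberg adjustment across all genes tested, and the terms of the 2 by 2 layout on 12 tumors. The standard error is the absolute log2 fold change over the square root of F. Alternatives were DESeq2 1.42.0, RLE factors, no filter, no fold threshold, 12 tumors in one fit, leaving out each tumor and, chosen after seeing the data, leaving out tumors 13 and 28LL and the number in the tumor name as a block. Leaving out both tumors was done in one fit of the other 10 tumors, also where a pair of groups was compared. Fits were tested on simulated data. CPM per kb used the exonic length in the files, and overlaps used the exon positions in the files. Symbols and transcripts came from GENCODE M21. Replicate numbers follow accession order and pair nothing. Tumor names share the number 22 across ADU-S100, combination and HBSS tumors and 20 across cyto-IL-15 and combination tumors, with no meaning given in the sources used here. P-values measure the spread between these tumors only. Counting error is small at these depths (48772204 to 103700199 counts), so precision is set by 3 tumors per group. The members and gene lists were chosen with earlier results of these data known. By rule, all 10 genes are given in every comparison, up to 4 genes of each other list with the smallest p for ADU-S100 against HBSS, and the 6 genes most like the 10; others named were chosen after their values were seen. The 2 listed genes, H2-T9 and Lilrb4a, were not matched. Single values of some listed genes are not reported here.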

Additional observations from a re-analysis of the deposited data

How the results depend on the processing

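For the comparisons of ADU-S100 and of the combination with HBSS and with cyto-IL-15, and for the ADU-S100 term, 610 values of the 10 genes were recomputed under alternatives. None changed sign, 543 kept their side of the thresholds, 16 called values lost the call and 51 uncalled values gained it. In the other comparisons signs did change, as given below. For ADU-S100 against HBSS, 9 of the 10 genes were called (8 to 9 without single tumors), and 667 of all genes (325 to 624 without single tumors, 1170 with no fold threshold, 1123 with DESeq2). With all 12 tumors in one fit, 0 of the 10 and 0 of all genes were called. For the combination against HBSS, 0 of the 10 and 0 of all genes were called (0 to 7 of the 10 and 0 to 247 of all without single tumors). DESeq2 called 9 of the 10 and 1149 of all genes, no filter on low counts gave 1 and 14, and leaving out tumors 13 and 28LL gave 7 and 316. For ADU-S100 against cyto-IL-15, 0 of the 10 and 16 of all genes were called (0 to 2 and 0 to 206 without single tumors). DESeq2 gave 1 and 262, RLE factors 6 of all, no filter 73 of all, all 12 tumors 4 of all, and leaving out both tumors 1 and 233. For cyto-IL-15 against HBSS, 0 were called (0 to 1 of the 10 and 0 to 179 of all without single tumors), against 110 of all with DESeq2, 1 with no filter and 32 without both tumors. For the combination against cyto-IL-15, 114 of all were called by DESeq2 and 52 without both tumors, against 0, and for the combination against ADU-S100, 7 by DESeq2, against 0. For the ADU-S100 term, 1 of the 10 and 232 of all were called (0 to 7 and 68 to 531 without single tumors), against 9 and 1077 with DESeq2 and 6 and 526 without both tumors. For the cyto-IL-15 term, DESeq2 called 80 of all, against 0. With the tumor number as a block, which leaves 2 residual degrees of freedom (1 for the interaction), 0 of the 10 and 58 of all were called for the ADU-S100 term and 42 of all, none of the 10, for the interaction, against 0 without it. The cause of these changes was not tested.

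Signs of uncalled differences were less firm. For cyto-IL-15 against HBSS, all 10 were above 0, but 6 were below 0 without tumor 9R, 7 without tumor 20LL and 2 without HBSS tumor 22R. For the combination against ADU-S100, 10 were below 0 without tumor 28LL, against 3 with it, and 5 with no filter and 6 without tumor 17LL. For the cyto-IL-15 term, all 10 were above 0, but 6 were below 0 without tumor 9R, 7 without tumor 20LL and 4 without tumor 28LL. Without tumors 13 and 28LL together, 1 was below 0. For the interaction, 8 were below 0, against 3 without tumor 9R and 2 without tumor 20LL, and 10 with the tumor number as a block. The classical share does not depend on the scaling of CPM. No paired analysis was possible because replicate numbers only follow accession order and no pair of groups shares more than 1 number in its tumor names.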
